A study of Arabidopsis thaliana with 8 samples.

Results

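The 200 brightest probe sets of an Arabidopsis cell culture are described here, chosen as those with the highest mean signal over all 8 arrays. Control probe sets and probe sets annotated to plastid- or mitochondrion-encoded genes were left out. The 200 thus came from 22669 of the 22810 probe sets on the array. Probe sets with no gene listed could not be screened in this way. A probe set is a group of short probes meant to detect the transcripts of 1 gene or of a few similar genes. The RNA was total RNA of cultured cells of the accession Ler (Landsberg erecta, stock NW20), grown at 24 °C on Murashige and Skoog medium. All 8 samples shared sucrose as nutrient and the hormones NAA, a synthetic auxin, and kinetin, a cytokinin. Titles name 4 samples fum and 4 samples met. Neither word is expanded and neither group is called a control, so fum is set against met throughout, with met as the base. According to its title, the series looked for core genes of programmed cell death in plants. The labels do not say whether the samples of a group were separate cultures, and the p-values cover the spread between samples alone, which may be technical.

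Cultured plant cells that divide and expand must keep making protein, and the cytosolic ribosome is the machine that does so. It has a small (40S) subunit, which reads the messenger RNA, and a large (60S) subunit, which joins the amino acids. Each subunit holds many ribosomal proteins, and in Arabidopsis most of them are encoded by a small family of near-identical genes that are transcribed strongly in growing tissue.

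Mean signal ran from 4339.9 at the first to 1872 at the last of the 200 probe sets, with 2444 at rank 100, values that chose the members. Signal depends on the probes as well as on the transcript, so the order of brightness is an order of probe sets and not of transcript amounts. The probe annotation pairs 75 of the 200 with 1 gene and 17 with several genes, and lists no gene for 108. The functions described below therefore come from 92 annotated probe sets, and 54% of the brightest probe sets have no function here. That share was 46.5% in the 200 probe sets that follow in rank and 38.5% among all 22669.

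Cytosolic ribosomal proteins were the leading function. Of the 92 annotated members, 60 detected ribosomal protein genes, 47 of them 1 gene each and 13 several genes that all encode ribosomal proteins. This was 65.2% of the annotated members, against 28% of the 107 annotated probe sets at ranks 201 to 400 and 1.13% of the 13939 annotated probe sets the rule chose from. The 47 single genes belong to 36 families, of which 26 had 1 gene among the members, 9 had 2 and the S7 family had 3. Of 133 ribosomal protein genes with a probe set of their own, 35.3% were members. At the very top the annotation is thin, since 8 of the 20 brightest probe sets list a gene and 3 of those are ribosomal.

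Away from the ribosome, the annotated members were few and of mixed function. Those that list 1 gene held 1 elongation factor subunit, 2 genes of ribosome assembly families, 2 of protein folding, 5 of metabolism, 6 of cell wall and secreted proteins, 3 of membrane proteins, 4 annotated pseudogenes and 5 genes to which no role was given. Another 4 probe sets, the brightest of all (247644_s_at) among them, list several genes that are not all ribosomal. They were given no function. Probe sets of several genes were thus counted for the ribosome and for no other function, so the counts are not fully alike. Probe sets whose suffix marks shared probes (27 ending in _s_at and 4 in _x_at) made up 15.5% of the members, 10% of the next 200 and 4.65% of all. The 75 single-gene members lay on chromosomes 1 to 5 in the numbers 11, 17, 24, 5 and 18. Chromosome 3 thus held 32% of them against 20.5% of all single-gene probe sets, and chromosome 4 held 6.67% against 14.7%, with no test made. Among these 75, the only direct neighbours in gene order were AT2G27710 and AT2G27720, which both encode the acidic stalk protein P2.

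The arrays themselves varied. The median signal of an array lay between 33.1 and 41.5, with precision limited by the 4 arrays per group. The 25S ribosomal RNA control probe set ranged from 157.6 units on fum array 3 to 4491 on met array 3, with low values also on met arrays 1 and 2 (824 and 1305). The 3′ to 5′ signal ratio of actin, a measure of RNA integrity, was 12 on met array 1 and 1.92 to 2.39 on the other 7. Markers of other cell types could hardly be read. Of 8 leaf markers only RCA, the activase of Rubisco, had a probe set of its own (382.7 to 464.4 in fum, 470.5 to 588.3 in met), and of 4 root hair markers only EXPA7 did (9.6 to 25 and 7.8 to 19.3), while none of 5 seed or 5 tracheary markers did. Among 6 markers of dividing cells AUR1, a mitotic kinase, gave 90.7 to 122.3 in fum and 116.9 to 132.0 in met. The part of these markers and of RNA quality in the results below was not tested, beyond the values given without single arrays.

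Membership changed little between arrays. Between 175 (met array 1) and 191 (fum array 2) of the members were among the 200 brightest of a single array, and 150 were so on every array, among them 52 of the 60 ribosomal probe sets. The 200 brightest by the fum mean included 188 of the members, those by the met mean 191, and the lists of the 2 groups had 179 in common. The median spread within a group was 0.14 on the log2 scale for the members and 0.22 for all 13647 probe sets tested, so bright probe sets had smaller errors (median SE 0.10 against 0.15). Just inside the limit were AT1G78040 (mean signal 1888), 253013_at (1879) and SAMDC (1872). Just outside it were 245832_at (1866), 264670_s_at (1862) and TIL, a lipocalin (1861).

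Between fum and met, most of the bright probe sets had a slightly lower signal in fum. The mean log2 signal was lower in fum for 180 of the 200 members (90%), against 50.4% of all probe sets tested. Their median log2 difference was -0.19, with quartiles of -0.25 and -0.10 and a range from -1.11 to 0.56, beside a median of -0.0021 over all probe sets tested. All 4 fum arrays lay below all 4 met arrays for 32 members (16%, against 6.37% of all tested), and above them for 3 (against 6.04%). This was not particular to the members. At ranks 201 to 400, 38 of 200 (19%) lay below and 8 above. At ranks 401 to 800, 63 of 400 (15.75%) lay below and 31 above, and at ranks 801 to 1600, 114 of 800 (14.25%) and 63. In a bulk culture, fewer cells of a type and less RNA per cell cannot be told apart. Neither was tested here, nor was the part of differences between arrays in RNA quality or in the distribution of signals.

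**Figure D1:**
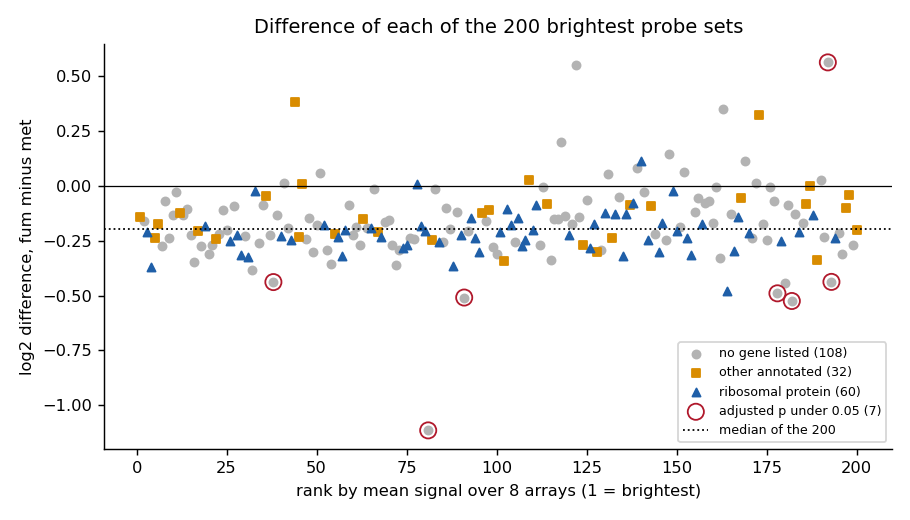
Each point is 1 of the 200 brightest probe sets, with its rank by mean signal on the x axis and its log2 difference (fum minus met, signals as deposited) on the y axis. Most points of all 3 classes lie below 0 around the dotted median of -0.19, 7 circled probe sets passed the test, and after quantile normalization the median is -0.0097.

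Few of these single differences passed the test. With limma over all 13647 probe sets and Benjamini-Hochberg adjustment, 1 member was higher and 6 were lower in fum at an adjusted p under 0.05. That is 3.5% of the members, near the 2.57% of all tested probe sets, of which 1.47% were higher and 1.11% lower. In 5 of the 7 called probe sets the mean of the lower group was under 1872, the mean signal at rank 200, as it was in 29 of all 200. These 5 (250207_at, 260408_at, 266097_at, 252368_at and 245956_s_at) are members through the group in which they were brighter, so the count of calls describes the members and supports nothing about them. At an unadjusted p under 0.05, 84 members (42%) were lower and 4 were higher, against 8.98% and 8.87% of all tested. Of the 200 probe sets at ranks 201 to 400, 60 (30%) were lower and 10 were higher. Leaving out fum array 1, 3 or 4 brought the 6 lower calls to 3, 1 and 0, leaving out met array 3 or 4 brought them to 0 and 2, and without met array 2 there were 19. The single higher call became 2 without met array 1 and without met array 2. The share of all probe sets called in each of these fits is not given here, so these counts show nothing particular to the members.

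The shift of the members also depended on which normalization was used. Under quantile normalization, which gives every array the same distribution of signals, the median log2 difference of the members was -0.0097, with 106 of 200 lower in fum. Centring each array on its median left it at -0.22, beside -0.032 for all probe sets tested. Quantile normalization removes by construction any difference between arrays that depends on brightness alone. Leaving out 1 array at a time kept the members' median between -0.27 (without met array 2) and -0.15 (without met array 1).

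Array by array, the shift was not a clean split of the groups. The median deviation of the members from their 8-array mean, in log2 units, was 0.032, -0.045, -0.20 and -0.16 on fum arrays 1 to 4 and 0.22, -0.095, 0.15 and 0.092 on met arrays 1 to 4. Fum array 1 and met array 2 lay on the side of the other group, so the groups overlapped. The members held 17.2, 16.5, 15 and 15.4% of the summed signal in fum (mean 16 ± 0.986, SD, n = 4) and 18.6, 15.9, 18.3 and 17.6% in met (17.6 ± 1.19). Ribosomal members alone held 4.65 ± 0.264% in fum and 5.23 ± 0.398% in met, with met array 2 (4.69%) inside the fum range.

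**Figure D2:**
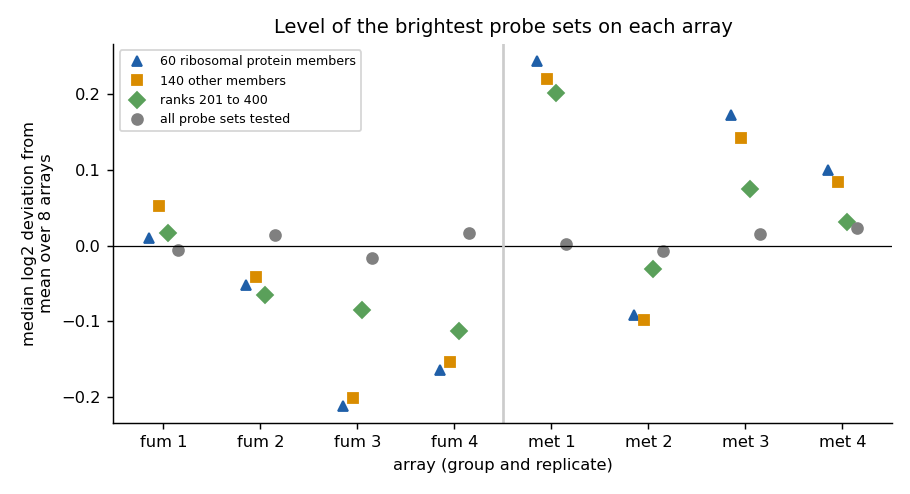
For each array (x axis), symbols give the median log2 deviation from the 8-array mean (y axis) of the 60 ribosomal members, the 140 other members, the probe sets at ranks 201 to 400 and all probe sets tested. The members are highest on met array 1 and lowest on fum array 3, met array 2 sits among the fum arrays, and all probe sets tested stay near 0.

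Differences followed brightness well beyond the 200. The median log2 difference was -0.22 at ranks 1 to 100, -0.16 at ranks 101 to 200, -0.12 at ranks 201 to 400 and -0.075 at ranks 401 to 800. It was -0.037 at ranks 801 to 1600 and 0.0021 at ranks 1601 to 3200, so the bright end graded into the rest with no step at rank 200.

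**Figure D3:**
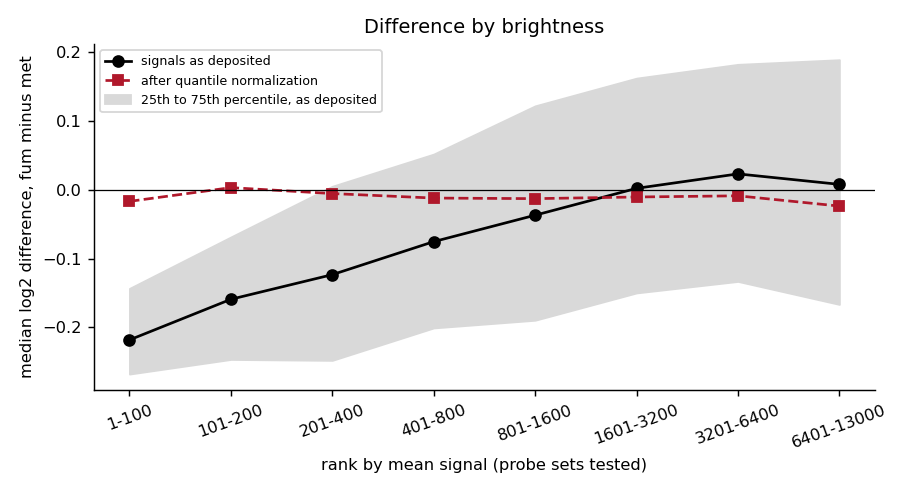
The median log2 difference (fum minus met, y axis) is plotted for classes of rank by mean signal (x axis), as deposited (black, with the grey band from the 25th to the 75th percentile) and after quantile normalization (red). As deposited the medians run from -0.22 in the brightest class to about 0 beyond rank 1600, and after quantile normalization all lie near 0.

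The ribosomal members are described here beside the rest of the 200, with no test between them. Of the 60, 58 had a lower mean in fum, with a median log2 difference of -0.22, against -0.17 for the 140 other members. No ribosomal member passed the test. Of the 60, 32 (53.3%) had an unadjusted limma p under 0.05 and a lower mean, against 37.1% of the 140 others and 8.98% of all tested. In 10 (16.7%) all fum arrays lay below all met arrays, and in 0 above. This is near the 15.7% of the 140 others that lay below, beside 6.37% of all tested. Leaving out met array 2 brought 6 of the 60 past the test, leaving out met array 1 brought 1, and each other single omission brought 0. The share of all probe sets called in those fits is not given here. The median was -0.21 over 17 genes of the 40S subunit and -0.22 over 30 genes of the 60S subunit. After quantile normalization the medians were -0.035 for the ribosomal members, 40 of 60 lower in fum, and 0.0098 for the other 140. Since many of these genes have near-identical copies, a probe set listed with 1 gene may still collect signal from its paralogs, and the values of single genes are uncertain to that extent.

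AT5G20290, which encodes S8 of the small subunit, was the brightest ribosomal member. It gave 4019.8, 4171, 3342 and 3557 signal units on fum arrays 1 to 4 and 4765, 3488, 4769 and 4518 on met arrays 1 to 4. Met array 2 fell inside the fum range, so the groups overlapped, and the difference did not pass (log2 -0.21, SE 0.11, limma adjusted p = 0.371). AT1G52300, the L37 protein of the large subunit, gave 3986, 3548, 3290.1 and 3309 signal units on fum arrays 1 to 4 and 5495, 3988, 4576 and 4289 on met arrays 1 to 4. Here every met array was above every fum array, by a narrow margin between met array 2 and fum array 1, and the test was still missed (log2 -0.37, SE 0.11, limma adjusted p = 0.0973). AT3G09200, the P0 protein that anchors the ribosome's stalk, gave 3405, 3134, 2795 and 2958 signal units on fum arrays 1 to 4 and 3887, 3132, 3559 and 3380.3 on met arrays 1 to 4. Met arrays 2 and 4 lay below fum array 1, so the groups overlapped (log2 -0.18, SE 0.09, limma adjusted p = 0.328).

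Members of 1 family did not always share a value. The S7 family, a part of the small subunit, had 3 genes among the members. AT1G48830 gave 2386, 2287, 2039.7 and 2055 signal units on fum arrays 1 to 4 and 3041, 2490.2, 3054 and 2708 on met arrays 1 to 4, with no overlap (log2 -0.36, SE 0.09, limma adjusted p = 0.0676). AT3G02560 gave 1921, 1843, 1795 and 1835 signal units on fum arrays 1 to 4 and 2785, 1921, 2285 and 2279 on met arrays 1 to 4, again without overlap (log2 -0.31, SE 0.10, limma adjusted p = 0.143). Its margin between fum array 1 and met array 2 was only 0.4 units. The third S7 gene, AT5G16130, had overlapping groups at a fum mean of 2258 ± 148 and a met mean of 2613 ± 250 signal units (log2 -0.21, SE 0.09, limma adjusted p = 0.256). All 3 had a lower mean in fum, and whether they differ from each other was not tested. Among the single omissions, AT1G48830 and AT3G02560 passed the test only without met array 2 (limma adjusted p = 0.0332 and 0.0425). With another array left out, their adjusted p reached 0.197 and 0.282. The other single-gene ribosomal members without overlap were AT3G09630 (L4), AT1G77940 (L30), AT3G56340 (S26), AT2G44120 (L7) and PGY1 (L10a), each lower in fum at log2 differences of -0.30, -0.30, -0.30, -0.25 and -0.24. Of these, AT1G77940 passed when met array 2 was left out (limma adjusted p = 0.0411) and in no other single omission. The L4 copy AT5G02870, at -0.17, overlapped between groups.

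A few ribosomal genes stood near 0 or above. AT3G05560, an L22 gene, gave 2384, 2246, 2182 and 2107 signal units on fum arrays 1 to 4 and 1775, 1974, 2299 and 2226 on met arrays 1 to 4. Met arrays 1 and 2 were the lowest of the 8, and the groups overlapped (log2 0.11, SE 0.09, limma adjusted p = 0.575). Both members of the S21 family lay near 0, AT5G27700 at a log2 difference of 0.01 (SE 0.09) and AT3G53890 at -0.02 (SE 0.11). Whether these 3 differ from the other ribosomal genes was not tested.

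**Figure D4:**
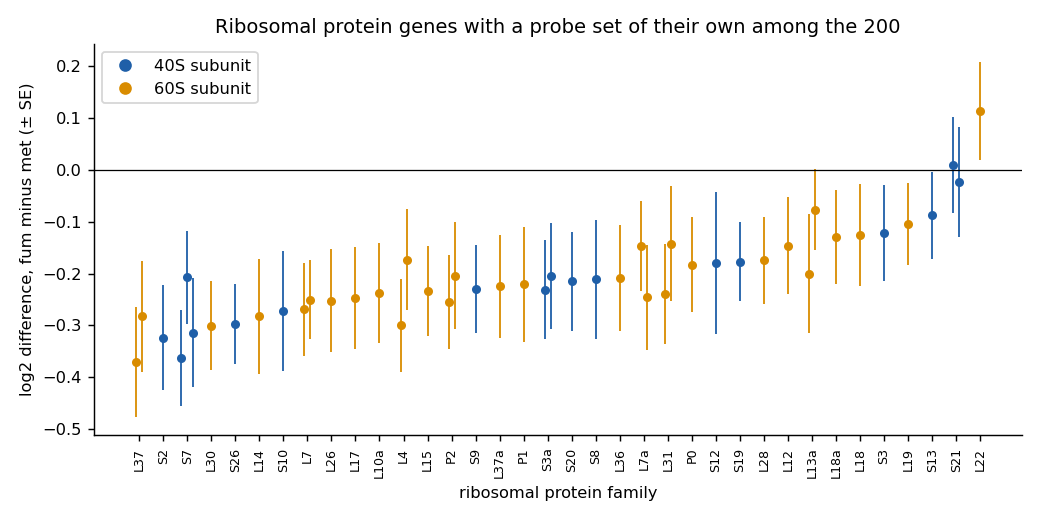
Each point is a ribosomal protein gene with a probe set of its own among the 200, grouped by family on the x axis and coloured by subunit, with its log2 difference (fum minus met, signals as deposited) and SE on the y axis. Genes run from -0.37 (L37) to 0.11 (L22), 45 of the 47 lie below 0, and 33 of the 47 do so after quantile normalization.

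Ribosomal protein genes too dim to be members gave similar differences. Outside the 200 lay 98 further ribosomal probe sets, of which 90 passed the filter on low signal. Their median log2 difference was -0.17, with 78 of the 90 lower in fum, and it was -0.097 without met array 1 and -0.090 after quantile normalization. At ranks 401 to 1600 the 44 ribosomal probe sets had a median of -0.19 and the 1156 others -0.045. After quantile normalization these were -0.14 and -0.0055. At ranks 201 to 400 the 2 medians lay closer, at -0.16 for 30 ribosomal and -0.11 for 170 other probe sets, and at -0.036 and 0.0020 after quantile normalization. These are descriptions with no test. The pair of dimmer ribosomal genes that passed the test were both lower in fum. AT3G55170, an L35 gene, gave a fum mean of 138 ± 7.29 and a met mean of 234 ± 36.2 signal units (log2 -0.75, SE 0.12, limma adjusted p = 0.00788), and passed whichever array was left out. AT2G17360, an S4 gene, gave a fum mean of 997 ± 59.1 and a met mean of 1314 ± 125 signal units (log2 -0.40, SE 0.09, limma adjusted p = 0.046), and passed only when met array 1 was left out among the 8 single omissions.

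Among the members that list 1 gene, translation factors and ribosome assembly were thinly represented. Members with no gene or several genes listed were not searched for them. AT5G19510, a subunit of the eEF1B factor that reloads elongation factor eEF1A with GTP, was the fifth brightest probe set. It gave 4548, 3808, 3018 and 3314 signal units on fum arrays 1 to 4 and 4138, 3355, 5255 and 4603 on met arrays 1 to 4. Arrays 1 and 2 of both fum and met lay within the range of the other group (log2 -0.24, SE 0.15, limma adjusted p = 0.448). Only 1 other of 11 listed elongation factor genes had a probe set of its own, the much dimmer eEF1B gene AT5G12110. It had a fum mean of 171 ± 21.3 and a met mean of 231 ± 28.6 signal units, without overlap (log2 -0.44, SE 0.13, limma adjusted p = 0.0948). AT2G44860, of a family of large-subunit assembly factors related to L24, had a fum mean of 1994 ± 277 and a met mean of 2064 ± 217 signal units, and AT5G20160, of the L7Ae family of RNA-binding proteins, had a fum mean of 2043 ± 181 and a met mean of 2481 ± 388 signal units. Neither passed the test, and the groups overlapped in both.

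The folding genes among the members were 2. AT3G09440, a cytosolic Hsp70 chaperone, gave 2489, 2309, 2432 and 2296 signal units on fum arrays 1 to 4 and 2335, 2398, 2221 and 2394 on met arrays 1 to 4. The arrays of both groups were interleaved (log2 0.03, SE 0.07, limma adjusted p = 0.887). AT5G20890, a subunit of the CCT chaperonin that folds actin and tubulin, had a fum mean of 1886 ± 209 and a met mean of 1994 ± 164 signal units (log2 -0.08, SE 0.10, limma adjusted p = 0.715). All 7 of 8 listed CCT subunit genes with their own probe set had a lower mean in fum and none passed, with a median log2 difference of -0.13 and a range from -0.27 (AT3G03960, groups not overlapping) to -0.01. The second Hsp70 gene, Hsp70-2, stood at 0.01.

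Of single genes of metabolism, 5 were members, with log2 differences between -0.20 and -0.08 and none past the test, and after quantile normalization 1 of the 5 was lower in fum and the median was 0.072. CYTC-1, the mitochondrial electron carrier cytochrome c, had a fum mean of 2255 ± 75.7 and a met mean of 2400.1 ± 271 signal units. GAPC2, the cytosolic glyceraldehyde-3-phosphate dehydrogenase of glycolysis, had a fum mean of 2103 ± 248 and a met mean of 2237 ± 283 signal units, and the microsomal glutathione transferase family gene AT1G65820 had a fum mean of 2363 ± 168 and a met mean of 2552 ± 226 signal units. In these 3 the groups overlapped. cICDH, the cytosolic NADP-dependent isocitrate dehydrogenase, had a fum mean of 1839.7 ± 88.1 and a met mean of 1974 ± 169 signal units, again overlapping. SAMDC, which makes the aminopropyl donor for polyamines, gave 1953, 1595, 1571 and 1866 signal units on fum arrays 1 to 4 and 1990.2, 1984, 2001 and 2016 on met arrays 1 to 4. All met arrays lay above all fum arrays and close to each other, while the fum arrays were spread (log2 -0.20, SE 0.09, limma adjusted p = 0.262).

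Genes of the cell wall and of secreted proteins had means on both sides, 2 higher and 4 lower in fum. AT2G38870, a protease inhibitor of the potato inhibitor I type, gave 3404, 3215, 3449 and 3206 signal units on fum arrays 1 to 4 and 2558, 3407, 2059 and 2337 on met arrays 1 to 4. Met array 2 lay within the fum range and the other met arrays lay well below it (log2 0.38, SE 0.13, limma adjusted p = 0.155). The difference passed without met array 2 (log2 0.52, limma adjusted p = 0.0139) and in no other single omission. LCR69, a plant defensin, a small secreted antimicrobial protein, gave 1954, 2027, 1984 and 2083 signal units on fum arrays 1 to 4 and 2741, 2190.5, 2464 and 2543 on met arrays 1 to 4. The groups did not overlap and the test was missed (log2 -0.30, SE 0.08, limma adjusted p = 0.0869). LCR69 passed without met array 2 (limma adjusted p = 0.0327) and in no other single omission. The remaining 4 of these genes had overlapping groups. AT5G62350, of the invertase and pectin methylesterase inhibitor family, had a fum mean of 2713 ± 250 and a met mean of 3181 ± 244 signal units. EXLA1, an expansin-like wall protein, had a fum mean of 2329.6 ± 209 and a met mean of 2778 ± 434 signal units. The GDSL lipase AT5G55050 stood at a log2 difference of 0.00 (SE 0.09) and AT1G78040, of the pollen allergen and extensin family, at -0.04 (SE 0.11).

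Membrane proteins numbered 3. AT5G35735, of an auxin-responsive family with a cytochrome b561 domain, gave 2546, 2224, 2029 and 2072 signal units on fum arrays 1 to 4 and 1881, 1586, 1956 and 1657 on met arrays 1 to 4. It was 1 of 3 members in which all fum arrays lay above all met arrays, by a margin of 72.9 units, and it did not pass (log2 0.32, SE 0.10, limma adjusted p = 0.118). After quantile normalization its log2 difference was 0.48 and passed (adjusted p = 0.00277). GTR1, a glucosinolate transporter, had a fum mean of 2029 ± 246 and a met mean of 2379 ± 166 signal units, and AT2G27080, of the NHL family, had a fum mean of 2498 ± 284 and a met mean of 2897 ± 403 signal units, with overlap in both.

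Members with an annotation but no role assigned here followed. Of the 5 genes given no role, AT3G22240 was the brightest, the sixth of all, at a fum mean of 3554 ± 443 and a met mean of 4017 ± 556 signal units with overlapping groups. AT3G48140 gave 2046, 2183, 2148 and 2134 signal units on fum arrays 1 to 4 and 3229, 2281, 2683 and 2689 on met arrays 1 to 4, without overlap (log2 -0.34, SE 0.10, limma adjusted p = 0.101). It passed without met array 2 (log2 -0.43, limma adjusted p = 0.0313) and in no other single omission. Annotated pseudogenes, all on probe sets that share probes with other transcripts, were AT3G30396, AT2G12240, AT2G10640 and AT2G12300. AT2G10640 gave 2960.0, 3009, 3008 and 2951 signal units on fum arrays 1 to 4 and 3672, 3112, 3753 and 3592 on met arrays 1 to 4. Its fum arrays lay within a narrow band below all met arrays (log2 -0.24, SE 0.08, limma adjusted p = 0.132). The difference passed without met array 2 (log2 -0.30, limma adjusted p = 0.0377) and in no other single omission. In the other 3 pseudogenes the groups overlapped.

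All 7 probe sets that passed the test belong to the 108 with no gene listed, so no function can be given for them. The one that rose, 245956_s_at, gave 2293, 2271, 2296 and 2254 signal units on fum arrays 1 to 4 and 1658, 1714, 1420.3 and 1398 on met arrays 1 to 4. Its fum arrays lay within 41.5 units of each other and well above the met arrays (log2 0.56, SE 0.09, limma adjusted p = 0.00702), a 1.48-fold difference that passed whichever array was left out. Like 4 of the falls (250207_at, 260408_at, 266097_at and 252368_at), it was among the 200 brightest on only 4 or 5 of the 8 arrays, while 258321_at and 261490_at were so on all 8. It lost the call under median centring (adjusted p = 0.0839). Of the 6 falls, all but 250207_at were lost under median centring too (0.0550 to 0.0831), and all 6 were lost when eBayes was run without the trend (0.0541 to 0.109).

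The largest fall was that of 250207_at, with 2128, 1668, 1436 and 1216 signal units on fum arrays 1 to 4 and 3811, 2349.6, 4472 and 3398 on met arrays 1 to 4. Fum array 1 came close to met array 2 without overlap, and met was 2.16-fold higher (log2 -1.11, SE 0.20, limma adjusted p = 0.0171). That call was lost without fum array 3 or 4 or met array 3, at adjusted p of 0.0504, 0.0653 and 0.0510. The second fall, 261490_at, gave 2188, 2031, 2118 and 1839 signal units on fum arrays 1 to 4 and 3336, 2771, 2875 and 2668 on met arrays 1 to 4. Every met array was at least 479.5 units above every fum array (log2 -0.51, SE 0.09, limma adjusted p = 0.0168), and the call was lost without fum array 4 or met array 3, at adjusted p of 0.0708 and 0.0523.

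The other 4 falls were called with less margin. 266097_at gave 1597, 1610.4, 1606 and 1561 signal units on fum arrays 1 to 4 and 2733, 1906, 2386 and 2218 on met arrays 1 to 4. The fum arrays agreed closely, the met arrays were spread (log2 -0.52, SE 0.10, limma adjusted p = 0.0251), and the call held only without met array 1 or 2 among the single omissions, with adjusted p of up to 0.0908 otherwise. 252368_at gave 1629, 1739.6, 1527 and 1597 signal units on fum arrays 1 to 4 and 2337, 1944, 2348 and 2177 on met arrays 1 to 4. The groups did not overlap (log2 -0.44, SE 0.09, limma adjusted p = 0.0243), and the call held without fum array 2, met array 1 or met array 2 and was lost otherwise, at up to 0.0908. 258321_at gave 2671, 2537, 2365 and 2541 signal units on fum arrays 1 to 4 and 3175, 3047, 3602 and 3938 on met arrays 1 to 4. There was again no overlap (log2 -0.44, SE 0.09, limma adjusted p = 0.0339), and the call held only without met array 1 or 2, at up to 0.111 otherwise. 260408_at gave 1809, 1828, 1524 and 1415 signal units on fum arrays 1 to 4 and 2501, 2018, 2395 and 2291 on met arrays 1 to 4. It too had no overlap (log2 -0.49, SE 0.11, limma adjusted p = 0.0374), and the call held only without fum array 2 or met array 2, at up to 0.122 otherwise.

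**Figure D5:**
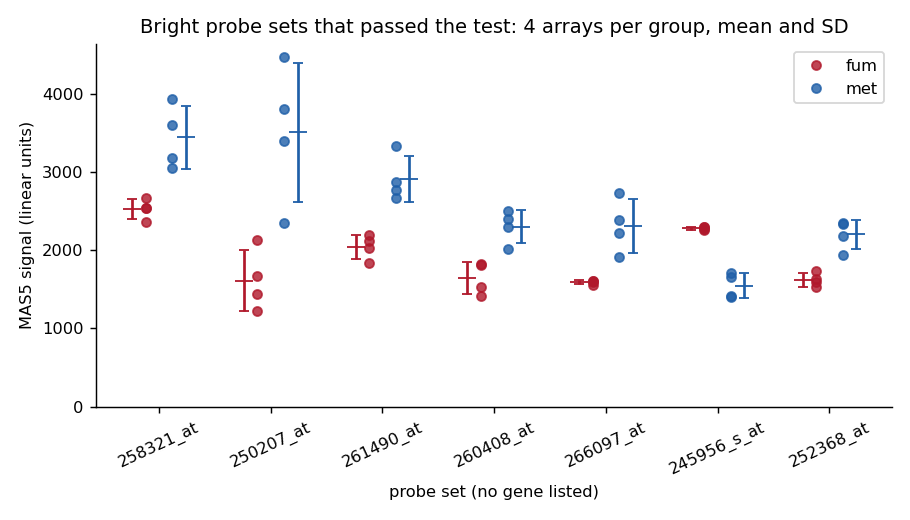
Signal (y axis, linear units) of the 7 bright probe sets that passed the test (x axis), with 1 point per array, 4 in fum and 4 in met, and bars for mean and SD. In 245956_s_at all fum points lie above the met points, in the other 6 all lie below, and no probe set shows overlap.

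Among the brightest probe sets with no single gene, the first 2 in rank had small differences. 247644_s_at, which lists several genes, had a fum mean of 4131 ± 582 and a met mean of 4548 ± 551 signal units, and 250358_at had a fum mean of 3868 ± 564 and a met mean of 4326 ± 674 signal units, with overlap in both. Over the 12 brightest probe sets as a whole the log2 difference ran from -0.37 to -0.03 and none passed the test. The 108 members with no gene listed had a median log2 difference of -0.18, with 95 lower in fum, close to the -0.19 of all 200. The 24 annotated single genes that are neither ribosomal nor pseudogenes had a median of -0.13, with 20 lower, and after quantile normalization 0.054, with 10 lower.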

How the data were processed

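The deposited table holds, per the submitters' processing notes, signal intensity from MAS5 (no version named) for 22810 probe sets on 8 arrays. The values are linear intensity and each array was processed alone. No genome build, background setting or detection call is given in the sources used here. From these values, 93 zeros were raised to 0.1 and log2 was taken. Probe sets with a mean log2 above the 40th percentile (a signal of 21.1) were tested, 13647 in all, including every member. The test of fum against met used R 4.3.3 and limma 3.58.1 (lmFit, eBayes with trend, two-sided, Benjamini-Hochberg over all probe sets tested). SDs are of linear signals with 4 arrays per group, and folds are ratios of geometric means. The procedure was tested on simulated data.

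Genes came from the probe annotation, with symbols updated through RefSeq TAIR10.1 (13436 of 13513 single-gene probe sets matched). No name was taken from a probe set with several genes. The planned keyword classes matched only 6 of 75 single-gene members, since the tables used hold no descriptions. Roles were instead assigned by hand from known gene functions, with a list of 234 ribosomal protein loci in 80 families. The members and all lists were chosen with earlier results of these data known. Named genes are the 12 brightest, all that passed, up to 3 brightest per class, and those next to the rank limit. Any other named gene was chosen after its values were seen. The planned sequence features were not computed, and no coordinates or sequences are given.

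Alternatives were other normalizations (quantile, median centring), 16 added to each signal, other filters, eBayes without trend or robust, array weights, the replicate number as block, the 25S signal as covariate or block and within its low and high arrays, each array left out, and other choices of the brightest probe sets.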

Additional observations from a re-analysis of the deposited data

Results flagged for a closer look

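The probe set 263548_at, which has no gene listed and ranked 122 of the 200, had 1 array far from the other 3 in each group. In fum the low array was number 3, at 1959.8 signal units, against 2734, 2854 and 2869.5 on the others (as ordered). In met it was array 1, at 760.7, against 2209.5, 2355 and 2395. Met array 1 is also the one with the actin 3′ to 5′ ratio of 12, and the part of RNA integrity in this value was not tested. The difference between groups was 0.55 on the log2 scale (limma adjusted p = 0.400). These were the 2 flagged of 80 groups examined, where chance flags about 1 in 20, and the probe set was singled out after its values were seen.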

How the results depend on the processing

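Against 1 member higher and 6 lower in fum, the counts moved as follows. Higher calls numbered 5 under quantile normalization, 0 under median centring, 2 with the filter at the 60th percentile, 2 with robust eBayes, 4 with array weights, 3 with low against high 25S signal as block, 2 within the 5 arrays of high and 0 within the 3 of low 25S signal. Lower calls numbered 6 under quantile normalization, 8 with the 60th percentile filter and 8 with robust eBayes, and 1 under median centring, 3 with no filter, 0 without the trend, 34 with array weights, 11 with the 25S block, 12 within the 5 and 0 within the 3 arrays. With other choices of members, the 100 brightest had 0 higher and 3 lower, the 400 brightest 4 and 18, and the 200 brightest without shared probes 0 and 10. Leaving out 1 array gave 1 to 2 higher and 0 to 19 lower. The cause of these changes was not tested, except that the other choices hold other probe sets and the within-25S values fewer arrays. The share of all probe sets called in the same fit does not stand beside these counts, so they show nothing particular to the members. Quantile normalization moved the median log2 difference to -0.0097 for the members and -0.035 for the ribosomal members, since it sets all arrays to 1 distribution, and under it 258321_at lost its call (adjusted p = 0.175). With 1 array left out these medians lay between -0.27 and -0.15 and between -0.29 and -0.18. Of 777 values of named genes under the alternatives, 688 kept direction and side of the threshold, 15 came to pass, 55 no longer passed and 19, none of them called on either side, changed sign. Quantile normalization turned 13 of these from below to above 0, namely 247644_s_at (0.095), 250358_at (0.055), AT3G22240 (0.027), 264005_at (0.13), 260943_at (0.067), 250995_at (0.16), AT3G30396 (0.074), AT1G65820 (0.072), CYTC-1 (0.093), GAPC2 (0.065), AT5G64400 (0.052), AT3G09200 (0.016) and AT1G78040 (0.13). AT1G78040 was also above 0 with array weights (0.026) and within the 5 arrays of high 25S signal (0.043). With 1 array left out, AT1G78040 lay between -0.10 and 0.067 (above 0 without met array 1), 264005_at between -0.16 and 0.016 (above 0 without fum array 3) and 250995_at between -0.088 and 0.013 (above 0 without fum array 3 or met array 3). The share of signal held by the members stayed between 16.5% and 17.1%. Same-numbered arrays did not deviate together (correlations of -0.17, -0.30, -0.47 and 0.14 for numbers 1 to 4). Whether the numbers pair samples is not stated in the labels, and the deviations of so few arrays cannot settle it. With the replicate block there were 1 higher and 2 lower calls. Signal near background limits dim probe sets, which are not among the members.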
